A study of Homo sapiens with 3 samples.

Results

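The E2F transcription factors and their DP partners control the passage of cells from G1 into S phase. An E2F protein of the classical kind binds DNA as a dimer with a DP protein, and the pocket proteins of the RB family hold this dimer inactive or repressive until cyclin-dependent kinases phosphorylate them. E2F1, E2F2 and E2F3 are usually described as activators, and E2F4 to E2F8 as repressors. Several E2F genes are themselves E2F targets, and in neural stem cells the family is known for its part in proliferation and cell cycle exit. CHD8 is a chromatin remodeler and TRRAP a scaffold subunit of histone acetyltransferase complexes, so the question addressed here was where both proteins sit on the genes of the family.

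The members were chosen by name as the 8 E2F genes and the 2 DP partner genes TFDP1 and TFDP2, 10 of 20033 protein-coding genes. Each was examined from 5 kb upstream of the gene to its end in GENCODE release 44 on GRCh38, which gave intervals of 569.9 kb in all. The study applied chromatin immunoprecipitation and sequencing to wild-type neural stem cells made from the human embryonic stem cell line H9, a widely used established line. The cells were grown with EGF and FGF, fixed with 2 mM disuccinimidyl glutarate followed by 1% formaldehyde, and sonicated for 14 cycles. There was 1 library with an antibody against CHD8 and 1 with an antibody against TRRAP. A library with control IgG was not analysed here. With 1 library per antibody there is no replicate error and no p-value, and the genes of the family are not replicates of each other.

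The CHD8 list held 23393 peaks and the TRRAP list 14735, and the read depth behind them is unknown. Of the 5 neural stem cell markers SOX2, NES, PAX6, SOX1 and HES1, 5 carried both proteins at the promoter, and 0 of the 2 pluripotency markers POU5F1 and NANOG carried either, beside 34.0% of coding genes with both. For SOX2 and HES1 some of the strongest peaks only reach into the promoter window of 1 kb. Their summits lay outside it, at −1334 bp (SOX2, CHD8), −1072 bp (HES1, CHD8) and −1049 bp (HES1, TRRAP) from the start. Other window sizes were not run for the markers. The observed over expected CpG of the neural marker promoters ran from 0.62 (HES1) to 0.923 (SOX1), in deciles 4 to 10 of coding genes. In decile 4, which holds HES1 and PAX6, 57% of genes had CHD8, 25.7% had TRRAP and 24.7% had both. In decile 10, which holds SOX1, 65.8% had both. POU5F1 (0.361) and NANOG (0.297) lie in CpG deciles where 19.4% and 5.89% of genes had CHD8 and 7.14% and 2.2% had TRRAP. The part of CpG content in these marker counts was not tested. Of the neuronal markers TUBB3, RBFOX3 and SYP, 2 had a CHD8 and 1 a TRRAP promoter peak. Occupancy of this kind is not a measure of expression.

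Of the 10 genes, 9 had a CHD8 peak at the promoter, 7 had a TRRAP peak and 6 had both. With only the peaks above the median rank of their list, 7 had CHD8, 4 had TRRAP and 2 (E2F3 and E2F5) had both, beside 42.5%, 19.5% and 16.7% of all coding genes. A promoter here reaches from 1 kb upstream to 1 kb downstream of the canonical transcript start. A peak was counted there if any part of it lay in this window, even with its summit outside. Among all coding genes, 55.9% had a CHD8 promoter peak, 34.9% a TRRAP promoter peak and 34.0% both. E2F1, E2F3, E2F5, E2F6, E2F7 and E2F8 carried both peaks. E2F2, E2F4 and TFDP2 carried CHD8 without TRRAP, a class that held 22.0% of coding genes. TFDP1 carried TRRAP without CHD8, a class that held 0.988% of coding genes (198 genes).

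The family has CpG-rich promoters, and over all coding genes occupancy by both proteins rose with CpG content. In the decile with the fewest CpG, 1.6% of genes had CHD8 and 0.649% had TRRAP, and in the richest decile 86.1% and 67.6% did. The CpG ratio, the observed over the expected number of CpG from 500 bp before to 500 bp after the start, ran from 0.648 at E2F4 to 0.946 at TFDP1, with a median of 0.862 against 0.725 for all coding genes. E2F4 lay in the fourth decile of coding genes and the other 9 in the seventh to the tenth. In the 14023 genes of deciles 4 to 10, 76.1% had CHD8, 48.5% had TRRAP and 47.3% had both. Deciles 5 and 6 hold no member. When each decile was weighted by its number of members, a background added after the counts were known, 79.3% had CHD8, 54.8% had TRRAP and 53.5% had both. The 6 of 10 genes with both peaks are near that share, and the counts of 9 and 7 in 10 are closer to theirs than to the shares of all genes. Among all genes with a CHD8 promoter peak, 60.7% also had TRRAP, against 6 of 9 in the family.

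**Figure D1:**
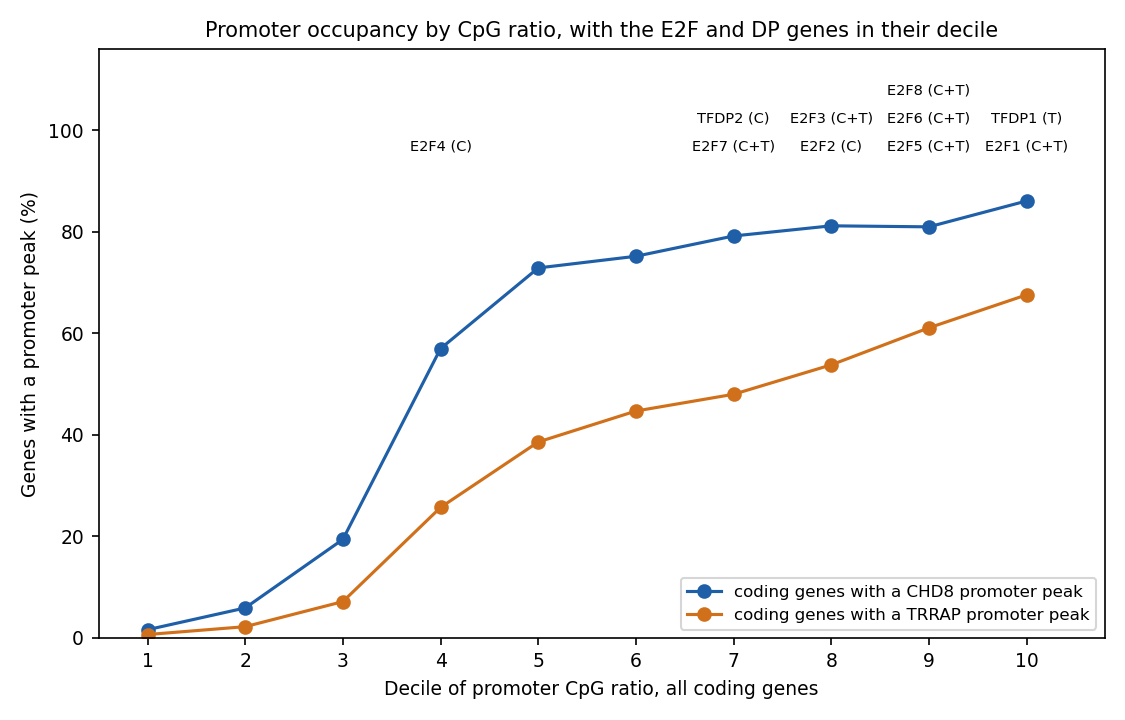
Percent of coding genes with a CHD8 (blue) or TRRAP (orange) promoter peak in each decile of promoter CpG ratio. The E2F and DP genes are written above their decile with the peaks they carry (C for CHD8, T for TRRAP). TFDP1 lacks CHD8 in the decile where 86.1% of genes have it, and E2F4 lacks TRRAP in a decile where 25.7% have it.

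The intervals held 17 CHD8 and 12 TRRAP peaks. At the canonical promoter lay 12 of the CHD8 and 10 of the TRRAP peaks, next to 69.1% of the CHD8 peaks and 71.7% of the TRRAP peaks in intervals of all coding genes. The other peaks, 5 of CHD8 and 2 of TRRAP, were inside E2F3 and TFDP2 and nowhere else in the family. No member had a peak between 5 kb and 1 kb upstream of its canonical start. Of the TRRAP peaks 10 of 12 overlapped a CHD8 peak (83.3%, Wilson 95% interval 55.2 to 95.3, counting error only), beside 90.1% in intervals of all coding genes. Of the CHD8 peaks 8 of 17 overlapped a TRRAP peak (47.1%, 26.2 to 69), beside 48.0%. The peaks are not independent draws, since 4 of the 12 TRRAP peaks are in E2F3 and 3 of these lie inside 1 CHD8 peak, so the intervals give no test against the background.

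**Figure D2:**
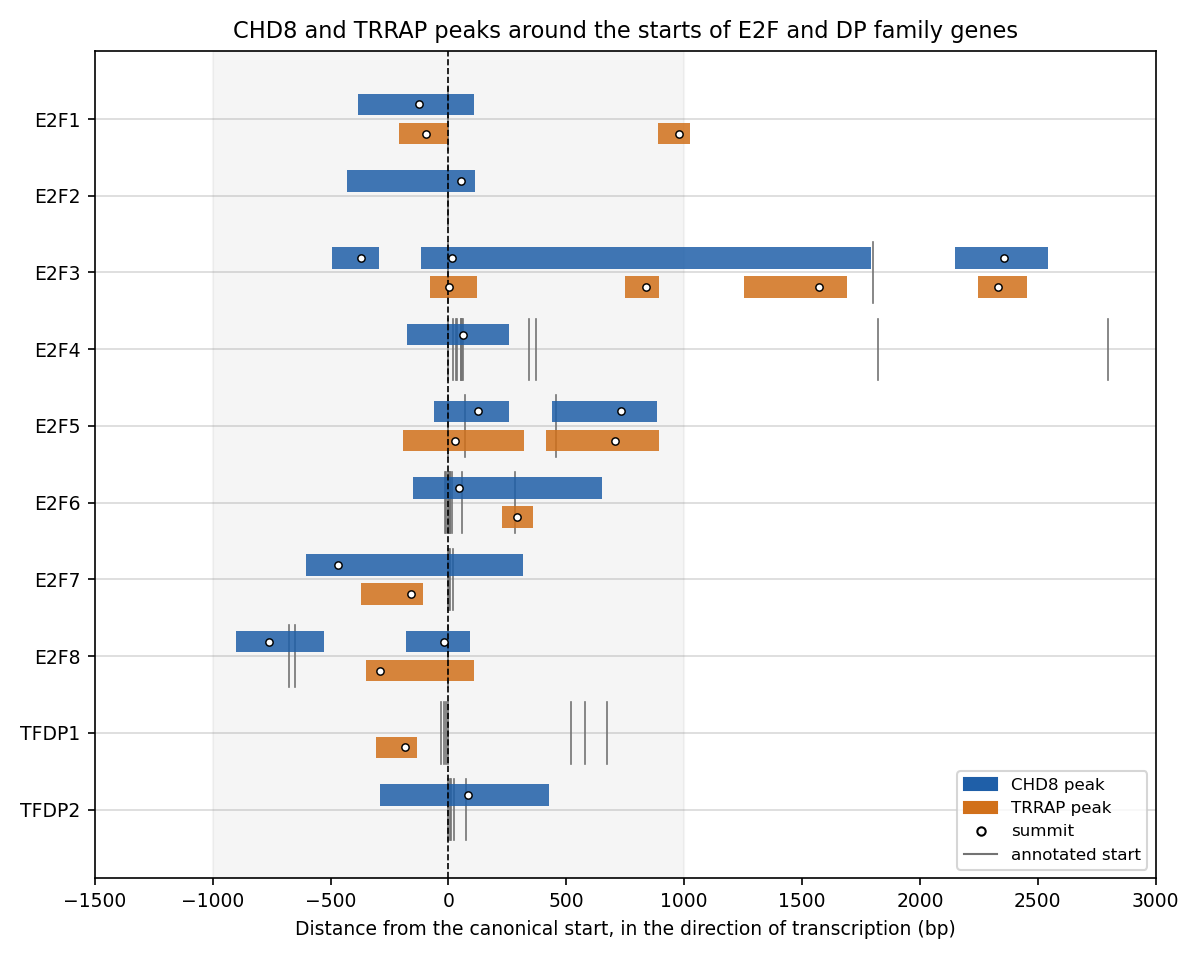
Extent of each CHD8 (blue) and TRRAP (orange) peak around the canonical start (dashed line) of the 10 genes, in bp in the direction of transcription. Circles are summits, grey ticks are annotated transcript starts and the shaded band is the promoter window. The broad CHD8 peak of E2F3 reaches from the canonical start towards the second start, while TFDP1 has a TRRAP bar alone and E2F2, E2F4 and TFDP2 have a CHD8 bar alone.

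Peak heights were ordinary for their lists. The fold is a linear enrichment over background given by the authors, used here within a list only, and it takes few distinct values, so that ties are common (161 values over the CHD8 list, 148 over the TRRAP list). The CHD8 peaks of the family had a median fold of 9.31, equal to the median of the list, with a range from 5.77 to 18.6 inside a list that runs from 4.89 to 126. The TRRAP peaks had a median fold of 8.41 against 8.17 for the list, with a range from 4.82 to 15.8. When each gene was represented by its strongest promoter peak, 7 of 9 members with CHD8 lay below the median of all coding genes with such a peak, which was 12.0 (25th to 75th percentile 9.31 to 16.4). For TRRAP, 3 of 7 lay below the corresponding median of 8.65, 2 equalled it and 2 lay above. All 29 summits of the family had a median of 1 copy in the reference, counted over the 32-base words of the 101 bp around the summit. The highest copy number of a word was 6 at both E2F6 summits and 1 at all others.

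**Figure D3:**
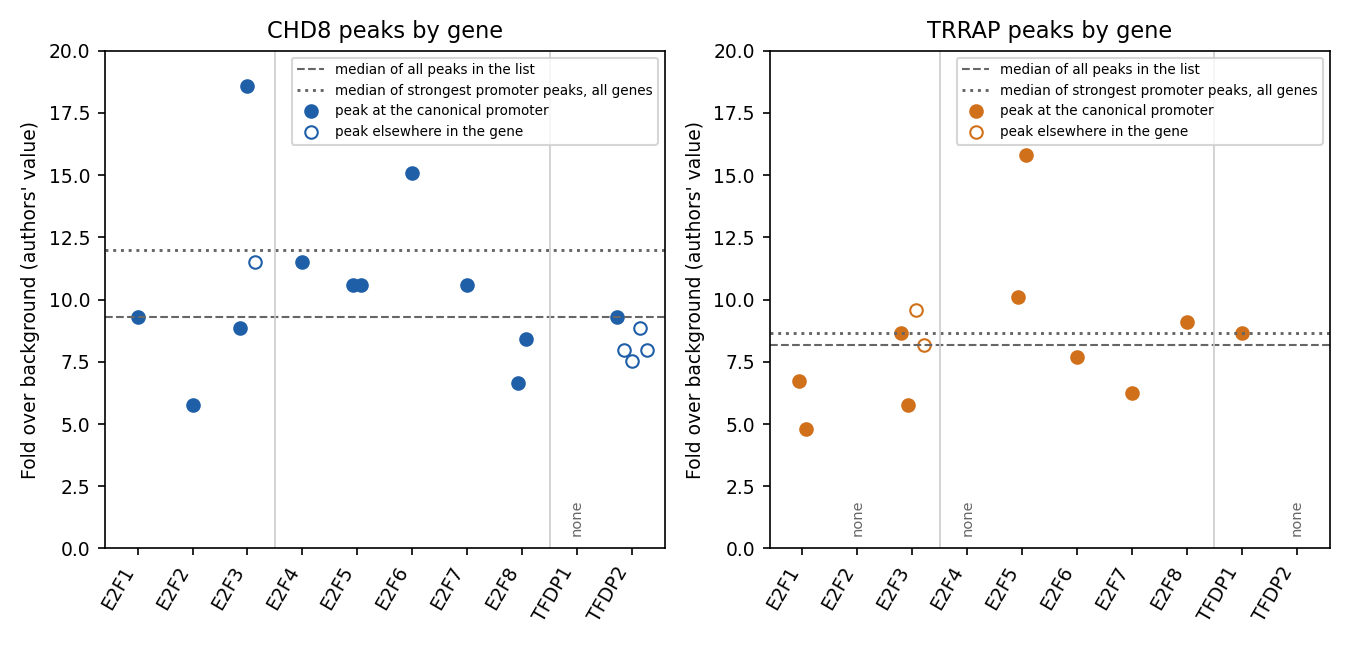
Fold of every CHD8 peak (left) and TRRAP peak (right) of each gene, as deposited by the authors. Filled circles lie at the canonical promoter and open circles elsewhere in the gene, dashed lines give the median of the whole list and dotted lines the median of the strongest promoter peaks of all genes. E2F3 (18.6) and E2F6 (15.1) are the members whose strongest CHD8 peak stands above the dotted line, and E2F5 (15.8) has the highest TRRAP fold.

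Among the activating members, E2F1, which drives S-phase genes when released from RB, had a moderate CHD8 peak at its promoter. It lay at chr20:33686277-33686770 with a fold of 9.31, a −log10 q of 13.6 and its summit 126 bp upstream of the start. A TRRAP peak of 209 bp at chr20:33686386-33686594 (fold 6.73) was wholly inside it, and the summits were 30 bp apart. A second TRRAP peak, 979 bp downstream of the start in intron 1 (chr20:33685361-33685496, fold 4.82), ranked 14730 of 14735 by −log10 q and had no CHD8 counterpart. It was among the 23 TRRAP peaks with a q-value above 0.0001.

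E2F2, the second activator, had the weakest CHD8 promoter peak of the family. That peak, at chr1:23531120-23531664, had a fold of 5.77 and ranked 22445 of 23393, and its summit was 54 bp downstream of the start in the untranslated part of exon 1. The nearest TRRAP peak was 23.5 kb from the start.

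E2F3 produces a long and a short protein from separate starts, and both ends of this promoter region were occupied. Its main CHD8 peak at chr6:20401762-20403671 had a fold of 18.6 and a −log10 q of 41.2, and its width of 1910 bp exceeded that of 99.3% of the list. The summit was 15 bp downstream of the canonical start, and the peak ended just short of the second GENCODE start, which lies 1800 bp downstream. Of all CHD8 peaks, of any width, 0.765% overlapped 3 or more TRRAP peaks. Inside the main CHD8 peak of E2F3 lay 3 TRRAP peaks. Their summits were 2, 839 and 1573 bp downstream of the canonical start, with folds of 8.65, 5.78 and 9.60. The third of them was the strongest and lay 162 bp upstream of the internal start in RefSeq.

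A further CHD8 peak of E2F3 in intron 1 (chr6:20404027-20404420, fold 11.5) contained a TRRAP peak (chr6:20404125-20404331, fold 8.17), with summits 24 bp apart and 2355 and 2331 bp downstream. Upstream, a CHD8 peak of 203 bp (chr6:20401383-20401585, fold 8.87) had no TRRAP counterpart. Its summit lay 373 bp upstream of the start and 3 bp from the start of the lncRNA gene ENSG00000289981 on the other strand. With 4 TRRAP peaks E2F3 had the most in the family, a number reached by 2.01% of coding genes. That share covers intervals of any length, and the interval of E2F3 is 96.8 kb long.

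Among the repressive members, E2F4, the main E2F of resting cells and a partner of the pocket proteins RBL1 and RBL2, had a CHD8 peak alone. It lay at chr16:67191977-67192410 with a fold of 11.5 and its summit 60 bp downstream of the start, in the untranslated part of exon 1. The closest TRRAP peak was 7.99 kb from the start, outside the interval. A CHD8 peak without TRRAP had a median fold of 10.6 over all coding genes of that class.

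E2F5, also a partner of pocket proteins, had the strongest TRRAP signal of the family in a pair of adjacent sites. At the start, a CHD8 peak (chr8:85177094-85177408, fold 10.6) lay wholly inside a TRRAP peak (chr8:85176961-85177474, fold 10.1), with the summits 99 bp apart. At the second site, in intron 1, a CHD8 peak (chr8:85177592-85178037, fold 10.6) was wholly inside a TRRAP peak of 480 bp (chr8:85177569-85178048, fold 15.8), with summits 26 bp apart and 733 and 707 bp downstream. The latter TRRAP peak ranked 1417 of 14735. Starts of lncRNA genes were close to both sites: that of E2F5-DT was 118 bp from the first TRRAP summit, and that of ENSG00000254208 was 289 bp from the second.

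E2F6, which lacks the pocket-protein binding region and works with polycomb proteins, had the second strongest CHD8 peak of the family. Its TRRAP peak had a fold below the list median, but above the strongest TRRAP promoter peaks of E2F1 and E2F7. The CHD8 peak at chr2:11465511-11466310 had a fold of 15.1 with its summit 46 bp downstream of the start. The TRRAP peak at chr2:11465805-11465935 was 131 bp wide with a fold of 7.69, and its summit was 292 bp downstream, in the coding part of exon 1 and 10 bp from another annotated start. The summits were 246 bp apart.

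The atypical members E2F7 and E2F8 bind DNA without a DP partner, through a pair of DNA-binding domains of their own. At E2F7, the CHD8 peak spanned 918 bp (chr12:77065256-77066173, fold 10.6), its summit lay 470 bp upstream, and the TRRAP peak inside it (chr12:77065676-77065941, fold 6.26) had its summit 157 bp upstream. At E2F8, a TRRAP peak of 459 bp (chr11:19240837-19241295, fold 9.12) wholly contained the CHD8 peak at the canonical start (chr11:19240855-19241127, fold 8.43), whose summit was 19 bp upstream. The TRRAP summit was 292 bp upstream. A second CHD8 peak of E2F8 (chr11:19241475-19241846, fold 6.66) had its summit 87 bp upstream of another annotated start and overlapped no TRRAP peak.

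The ranges of activating and repressive members overlapped in each measure of the strongest promoter peak. Both peaks were present at 2 of 3 activating and 4 of 5 repressive genes, and CHD8 at 3 of 3 and 5 of 5. The CHD8 fold of the strongest promoter peak ran from 5.77 to 18.6 in the activating group (median 9.31) and from 8.43 to 15.1 in the repressive group (median 10.6), so the repressive range lay inside the activating one. The TRRAP folds were 6.73 and 8.65 in the activating genes with a peak and ran from 6.26 to 15.8 (median 8.41) in the repressive ones. CHD8 widths had medians of 545 and 446 bp, a difference that changed sign when all promoter peaks of a gene were summed (545 against 761 bp). Activating genes held 5 CHD8 and 6 TRRAP peaks, and repressive genes 7 and 5. With 3 and 5 genes in 1 library each, these values describe the genes and give no test.

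In pairs of overlapping peaks the summits did not coincide everywhere. There were 10 such pairs at 6 genes, with summits 13 to 1558 bp apart and a median of 172 bp, and 5 pairs were within 150 bp. The broad CHD8 peak of E2F3 enters 3 of these pairs with the same summit, at 13, 824 and 1558 bp. In the remaining pairs the summits were 24 to 313 bp apart. The median therefore counts this CHD8 summit more than once. The closest pair was at the canonical start of E2F3 (13 bp). In 7 pairs the TRRAP peak was wholly inside the CHD8 peak, and in the others, at E2F5 and E2F8, the CHD8 peak was wholly inside the TRRAP peak.

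At the canonical promoter, TFDP1 carried TRRAP alone and TFDP2 carried CHD8 alone. DP proteins form the second subunit of the classical dimers. TFDP1 had 1 TRRAP peak at chr13:113584447-113584620 (174 bp, fold 8.65, −log10 q 11.0). Its summit was 184 bp upstream, and the nearest CHD8 peak was 93.5 kb from the start. Among the 198 genes of this class the median TRRAP fold was 8.17 and the median width 178 bp, and 29.8% had a higher fold than TFDP1. The promoter of TFDP1 had a GC content of 79.7%, the highest of the family, in a range that starts at 60.1%. Of the 150 coding genes with a GC content at least as high, 105 had CHD8 (70%), 89 had TRRAP (59.3%) and 8 had TRRAP alone. Whether GC content plays a part in the result at TFDP1 was not tested. Absence from a list means that no peak passed the threshold of that list.

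TFDP2 showed the reverse, with 5 CHD8 peaks and no TRRAP peak. An interval with 5 or more CHD8 peaks was found for 2.58% of coding genes, but that of TFDP2 is the longest in the family at 210.1 kb. The strongest peak was at the canonical start (chr3:142149119-142149833, fold 9.31), with its summit 81 bp downstream. The others had folds from 7.54 to 8.87 and were intronic. One lay in intron 1, 42876 bp downstream (chr3:142106567-142106804), and 4911 bp from the nearest annotated start. The remaining 3 formed a group in intron 3 (chr3:142028519-142028688, chr3:142027740-142028184 and chr3:142027398-142027558) next to internal TFDP2 starts. The summit of the first was 120931 bp downstream of the canonical start and 7 bp from the nearest internal start, and the summits of the others were 751 and 1141 bp downstream of theirs. The nearest TRRAP peak to the canonical start was 298 kb away.

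**Figure D4:**
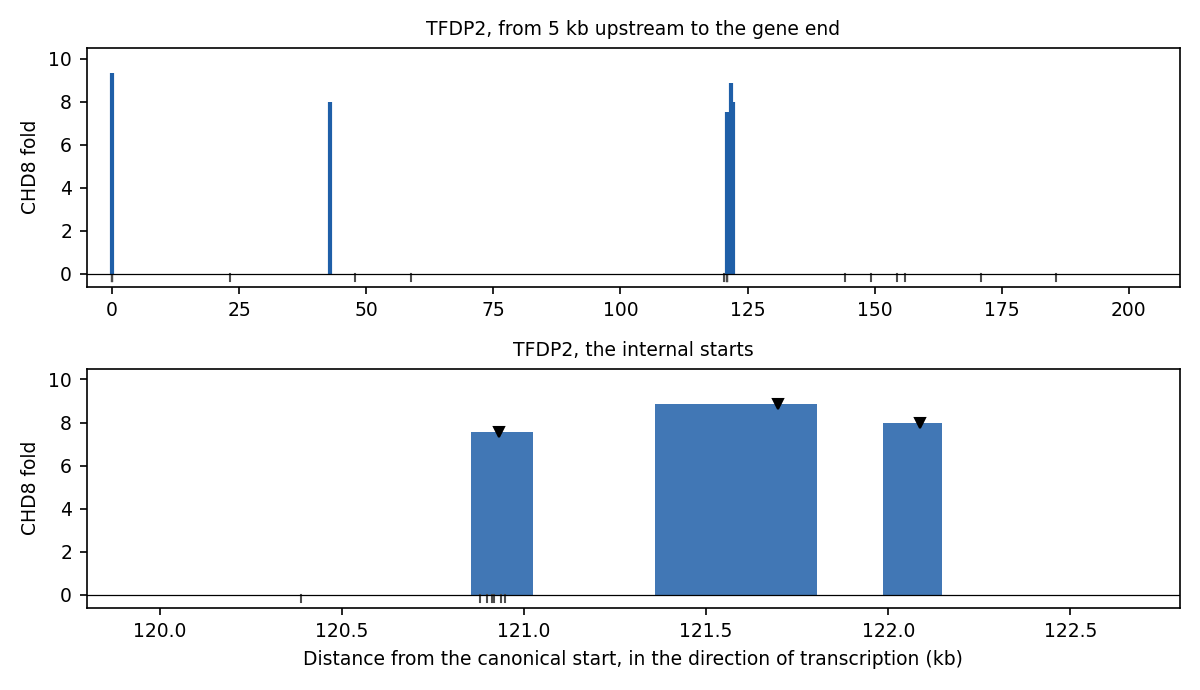
CHD8 fold of each TFDP2 peak against distance from the canonical start in kb, over the whole interval (top) and around the internal starts (bottom). Bars in the lower panel have the width of the peak, triangles mark summits and ticks below the axis are annotated starts. A peak stands at the canonical start, and 3 peaks of fold 7.54, 8.87 and 7.98 lie at the internal starts or past them.

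Promoter sequences of the family were searched for E2F words, because several E2F genes are known to be regulated by E2F proteins. The words were TTTCGCGC and TTTGGCGC on both strands, in the 300 bases from 250 before to 50 after the canonical start. They occurred at 4 of 10 members, namely E2F1, E2F2, E2F8 and TFDP1, and at 1.55% of all coding promoters. The shorter words were TTCGCGC and its relative TTGGCGC, which are the ends of the longer ones, together with the word TTCCCGC and also the word TTGCCGC. One or more of them occurred at 8 of 10 members (all but E2F4 and TFDP2) and at 17.1% of coding promoters. All of these E2F words contain CpG, and the shares cover promoters of any CpG content. Shares at the CpG content of the family were not computed. The word CCAAT occurred at 5 members and 36.1% of promoters, GGGCGG at 9 and 61.3%, the E-box CACGTG at 0 and 8.76%, and TTTGAA at 1 (E2F3) and 11.5%. A match is a description of the letters and not a measured site.

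The positions of the longer words relative to the peaks differed between the 4 genes. In E2F1 the word lay 20 to 13 bases upstream of the start, inside both peaks and 110 bp from the CHD8 and 80 bp from the TRRAP summit. In E2F2 it lay 42 to 35 bases upstream, inside the CHD8 peak. In E2F8 it lay 202 to 195 bases upstream, inside the TRRAP peak and outside both CHD8 peaks. In TFDP1 it lay 120 to 113 bases upstream, outside the TRRAP peak and 68 bp from its summit.

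The upstream sequences of these genes are shown to set the words beside the occupancy, as given by RefSeq for GRCh38.p14, 5′ to 3′ on the strand of the gene, from 250 bases before the RefSeq start and without bases in annotated exons of the gene. RefSeq windows matched 8 of the 10 members. Capitals mark the longer or shorter E2F words. The first 3 hold a longer word and differ in occupancy (both proteins, CHD8 alone and TRRAP alone).
E2F1, chr20:33686386-33686635, minus strand: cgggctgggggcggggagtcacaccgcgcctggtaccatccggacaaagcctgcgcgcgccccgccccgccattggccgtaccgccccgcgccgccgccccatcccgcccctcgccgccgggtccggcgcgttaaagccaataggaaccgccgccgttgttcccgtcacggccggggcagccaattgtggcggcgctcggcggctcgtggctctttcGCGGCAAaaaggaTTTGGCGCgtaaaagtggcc
E2F2, chr1:23531234-23531483, minus strand: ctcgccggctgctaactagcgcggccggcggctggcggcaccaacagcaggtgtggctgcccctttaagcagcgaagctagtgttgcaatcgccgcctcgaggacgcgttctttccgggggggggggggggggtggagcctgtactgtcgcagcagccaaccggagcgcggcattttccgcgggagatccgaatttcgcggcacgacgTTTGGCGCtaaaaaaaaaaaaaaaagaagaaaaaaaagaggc
TFDP1, chr13:113584503-113584720, plus strand: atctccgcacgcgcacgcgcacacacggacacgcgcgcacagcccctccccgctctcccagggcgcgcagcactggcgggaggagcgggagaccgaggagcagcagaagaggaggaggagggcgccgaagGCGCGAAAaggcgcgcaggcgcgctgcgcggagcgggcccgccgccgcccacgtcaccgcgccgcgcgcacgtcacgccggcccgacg

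The sequences before both E2F3 starts are shown because the broad CHD8 peak spans both RefSeq starts and each had its own TRRAP peak. The canonical one holds 2 shorter E2F words and 4 CCAAT words at 58.8% GC, and the internal one holds none of either at 77.6% GC.
E2F3 canonical start, chr6:20401629-20401878, plus strand: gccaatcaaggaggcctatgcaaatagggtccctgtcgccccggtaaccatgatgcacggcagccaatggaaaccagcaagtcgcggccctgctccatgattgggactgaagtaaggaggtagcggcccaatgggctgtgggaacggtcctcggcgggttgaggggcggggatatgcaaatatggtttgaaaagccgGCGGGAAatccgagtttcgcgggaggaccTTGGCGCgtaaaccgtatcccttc
E2F3 internal start, chr6:20403364-20403613, plus strand: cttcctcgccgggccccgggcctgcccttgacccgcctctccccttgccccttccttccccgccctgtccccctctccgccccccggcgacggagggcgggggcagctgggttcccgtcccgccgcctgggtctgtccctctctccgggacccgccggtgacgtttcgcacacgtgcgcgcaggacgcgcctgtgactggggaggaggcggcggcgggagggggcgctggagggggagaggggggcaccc

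E2F4 and TFDP2, the members without E2F words that also lack TRRAP, are shown for contrast. The canonical TFDP2 promoter has 20 CpG in 250 bases (70.8% GC), and the internal start that carries a CHD8 summit 13 bp away has 2 CpG in 211 bases (31.3% GC).
E2F4, chr16:67191905-67192154, plus strand: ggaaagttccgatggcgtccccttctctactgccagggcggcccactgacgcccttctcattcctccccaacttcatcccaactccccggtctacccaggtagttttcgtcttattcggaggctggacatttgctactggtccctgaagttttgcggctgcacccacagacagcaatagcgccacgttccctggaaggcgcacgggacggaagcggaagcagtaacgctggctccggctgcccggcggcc
TFDP2 canonical start, chr3:142149545-142149794, minus strand: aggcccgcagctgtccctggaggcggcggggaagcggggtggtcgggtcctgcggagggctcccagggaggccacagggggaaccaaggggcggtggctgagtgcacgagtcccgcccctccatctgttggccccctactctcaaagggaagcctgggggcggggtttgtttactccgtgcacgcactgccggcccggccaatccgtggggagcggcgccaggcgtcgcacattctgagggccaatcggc
TFDP2 internal start, chr3:142028666-142028876, minus strand: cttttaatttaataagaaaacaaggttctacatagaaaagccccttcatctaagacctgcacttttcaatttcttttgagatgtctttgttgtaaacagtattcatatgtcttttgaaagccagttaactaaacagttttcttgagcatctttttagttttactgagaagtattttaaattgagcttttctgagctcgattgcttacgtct

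The proteins and enzymes around the E2F factors were compared through a list of 28 genes. CHD8 was at the promoter of 26 and TRRAP at 16, all 16 with CHD8, and 0 had TRRAP alone. The shares were 92.9% with CHD8 and 57.1% with both, beside 55.9% and 34.0% of all coding genes and 73.2% and 45% when CpG deciles were weighted as in the list. The G1 cyclins and kinases, which phosphorylate the pocket proteins, had both peaks at 7 of 8 genes. Of these, CCND2 had the summits of its strongest peaks just outside the 1 kb window, at −1075 bp (CHD8) and −1005 bp (TRRAP). The CHD8 summit of RBL2, at 1054 bp, also lay outside it. The pocket protein genes had both at 2 of 3, the MuvB and MYB genes, which repress or activate cell cycle genes with E2F4 or MYBL2, at 2 of 6, and the E2F6 complex genes MGA, L3MBTL2 and PCGF6 at 1 of 3. Cofactor genes had both at 1 of 3 and CDK inhibitor genes at 3 of 5. The counts of 1 of 3 and 2 of 6 equal about the share of all coding genes with both peaks, and groups of this size describe only the genes in them. The inhibitor genes CDKN2A and CDKN2C were the 2 genes with neither peak.

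The same 3 genes had the highest folds of the pathway in both lists, and all exceeded every E2F and DP gene. HCFC1, a cofactor that ties E2F proteins to histone methyltransferases, had folds of 64.1 (CHD8) and 19.6 (TRRAP). The pocket protein gene RBL1 had 38.0 and 18.2, and RBBP4, a histone-binding subunit of MuvB, had 32.3 and 16.8. The median fold over the list was 11.1 for CHD8 and 9.61 for TRRAP, beside 12.0 and 8.65 over all coding genes with such a peak.

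**Figure D5:**
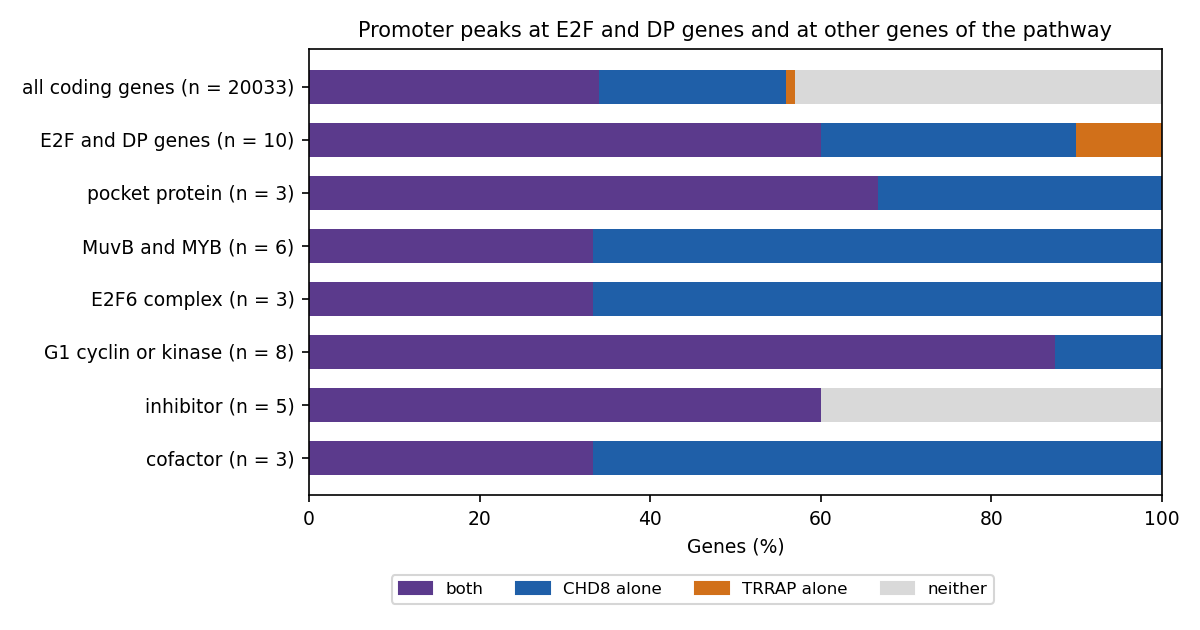
Percent of genes with both promoter peaks (purple), CHD8 alone (blue), TRRAP alone (orange) or neither (grey), for all coding genes, the E2F and DP genes and 6 groups of other pathway genes, with the number of genes in brackets. Of the E2F and DP genes 6 of 10 have both and TFDP1 is the orange share, while of the G1 cyclins and kinases 7 of 8 have both.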

How the data were processed

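The authors deposited 1 peak list per antibody, not pooled. Per the submitters' processing notes, GRCh38, HISAT2 and MACS2 2.1.1.20160309 were used; settings, the control and filters are not given in the sources used here. The CHD8 list carries a false discovery rate of 0.0001 in its name, the TRRAP list one of 0.001. Deposited values per peak were a score (10 times the −log10 q, rounded down), a linear fold, −log10 p and −log10 q, and the summit. Among peaks whose sequence name matched the GRCh38 reference used here, 0 ran past a sequence end. The 341 CHD8 and 426 TRRAP peaks on other names were not checked. The lists give no read totals, so depth and precision of a fold are unknown.

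Peaks were ranked by −log10 q, ties by fold, width and position. They were counted from 5 kb upstream to the end of each gene, and at promoters (1 kb on each side of the GENCODE 44 canonical start), and overlapped if they shared 1 bp. Interval functions were tested on simulated data. No p-value was computed. All 10 members, the pathway genes without CHD8 and the 3 with the highest folds in each list, and genes whose start lay within 1 kb of a member summit were named by rule. The members and lists were chosen with earlier results of these data known. Tables were handled with pandas 2.3.3 and numpy 2.4.6, sequences with pysam 0.24.0, intervals with scipy 1.17.1 and figures with matplotlib 3.10.9 in Python 3.11.15.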

Additional observations from a re-analysis of the deposited data

How the results depend on the processing

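Promoter windows of 500 and 2500 bp, the use of every annotated start, and a q-value limit of 0.0001 for TRRAP left the same 6 genes with both peaks. Restriction to peaks above the median rank left 4 members with TRRAP and 2 (E2F3 and E2F5) with both. In the intervals, 9 CHD8 and 6 TRRAP peaks remained. Of all coding genes, 19.5% kept a TRRAP promoter peak and 16.7% kept both, beside 34.9% and 34.0% with the full lists. Merging peaks closer than 500 bp left 11 CHD8 peaks. The repressive minus activating median of the strongest promoter peak was 1.33 for the CHD8 fold under all alternatives run. For the CHD8 width it was −99 bp, but 216 bp with summed widths and −105 bp without E2F6. For the TRRAP fold it was 0.717, but 0.239 with 2500 bp, with all starts and with the strongest peak of the interval, and 1.43 without E2F6. For the TRRAP width it was 157 bp, but 38.5 bp under the same 3 settings, 15.5 bp with summed widths and 254 bp without E2F6. Within 100 bp of the CHD8 summit the longer E2F words were found at 1 of 9 members, beside 1.08% of 11208 coding genes. Within 100 bp of the TRRAP summit they were found at 3 of 7 members, beside 1.51% of 7000 coding genes. Each count covers only genes with a promoter peak of that protein, and a difference between the summits was not tested. The shorter words were found at 8 members in the promoter window, beside 17.1% of coding promoters. Within 100 bp of the CHD8 summit they were found at 5 of 9 members, beside 16.9% of the 11208 genes. Within 100 bp of the TRRAP summit it was 5 of 7 members, beside 18.9% of the 7000 genes. Of 57 alternatives, 39 were labelled unchanged, 17 moved and 1 reversed. Unchanged allowed a factor of up to 1.5 for a count and any value inside the Wilson interval for a share. With peaks above the median rank this label covered 7 members with CHD8 in place of 9. It also covered 33.3% in place of 47.1% of CHD8 peaks overlapping TRRAP. No paired analysis was possible because each antibody had 1 library. Unknown read depth limits what the absence of a peak shows.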
